A study of Mus musculus with 6 samples.

Results

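Serpins are a large family of proteins, most of them protease inhibitors, and the genes described here are all those of the table whose symbol begins with Serpin, a clade letter from a to i and a digit. The table holds 63 such genes among 23361 genes in all, and 22 of the 63 reached a mean of at least 1 FPKM (fragments of a gene divided by the transcript's length and the size of the library) over the 2 ages, as did 12652 genes of the whole table. RNA was sequenced from isolated taste cells of the circumvallate and foliate (CV/Fol) papillae, which carry taste buds on the rear and side of the tongue, of C57BL/6 mice. The groups were mice aged 2 months, with 3 libraries that each pooled cells of 4 mice, and mice aged 6 months, with 3 libraries that each pooled cells of 3 mice. The sample labels give these ages, whereas the series text names 3 and 6 months in one place. Each gene has 1 value per age, so the differences given here have no replicate check and no SD, and none was tested. The sequencing depth is unknown.

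A serpin presents a flexible stretch, the reactive centre loop, as bait to a protease. When the protease cuts the loop, the serpin folds around it and traps it in a covalent complex, so that each inhibitor molecule is used up in one reaction. Members of clade B lack a classical signal peptide and act mostly inside cells, and many of them belong to stratified squamous epithelium, the tissue that surrounds taste buds, while clade A is best known from liver and plasma.

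The labelled cell type was compared with its markers. Genes of all 3 classes of taste cell were present: the type I gene Entpd2 had 66.1 FPKM at 2 months against 57.7 FPKM at 6 months, the other type I gene, Slc1a3, had 0.710 and 0.988 FPKM, below the filter, the type II gene Gnat3 had 84.7 and 79.9 FPKM, and the type III gene Pkd2l1 had 12.4 and 14.0 FPKM. Keratins of basal keratinocytes, the layer that also renews taste buds, were far more abundant, with Krt5 at 2179.8 and 1962 FPKM. In such bulk RNA, fewer cells of a type and less RNA per cell cannot be told apart.

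All genes of the table summed to 695840 FPKM at 2 months against 666440 FPKM at 6 months. Serpin mRNA summed to almost the same level at the 2 ages, 1603 FPKM at 2 months against 1604 FPKM at 6 months. This even sum held members that differed in opposite directions. Serpinb3a, Serpinb3c and Serpinb13 had higher values at 6 months, while most other expressed members had slightly lower ones. In the sum, Serpinb3a far outweighed the other named genes, with 234 FPKM at 2 months against 344 FPKM at 6 months. Serpinb3c had 6.63 and 11.8 FPKM, and Serpinb13 had 0.738 and 2.16 FPKM. Without these 3 genes, singled out once their values were known, the sum was 1362 FPKM at 2 months against 1246 FPKM at 6 months. As the full sum was even, a lower remainder follows from that choice. Differences are given on the log2(FPKM + 1) scale, the 6 month value less the 2 month value, which is a scale that understates changes of weakly expressed genes, and a gene is called higher or lower where it differs by at least 1.5-fold on that scale, a log2 difference of 0.58. Of the 22 expressed serpins, 2 were called higher, Serpinb13 and Serpinb3c, and 0 were called lower, where 1.05% of all expressed genes were called higher and 1.72% lower. A higher value at 6 months was found for 7 of the 22, or 31.8%, and a lower value for 15, where 46.3% of all expressed genes had a higher value. With both ages set to the same upper quartile the split was 9 to 13, since Serpinb12 and Serpinb9 then changed direction, and 7298 of all 12652 expressed genes had a higher value. The median log2 difference of the 22 was -0.17, with quartiles of -0.32 and 0.05, against -0.01 for all expressed genes, with quartiles of -0.10 and 0.08. These medians describe the libraries and were not tested.

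**Figure D1:**
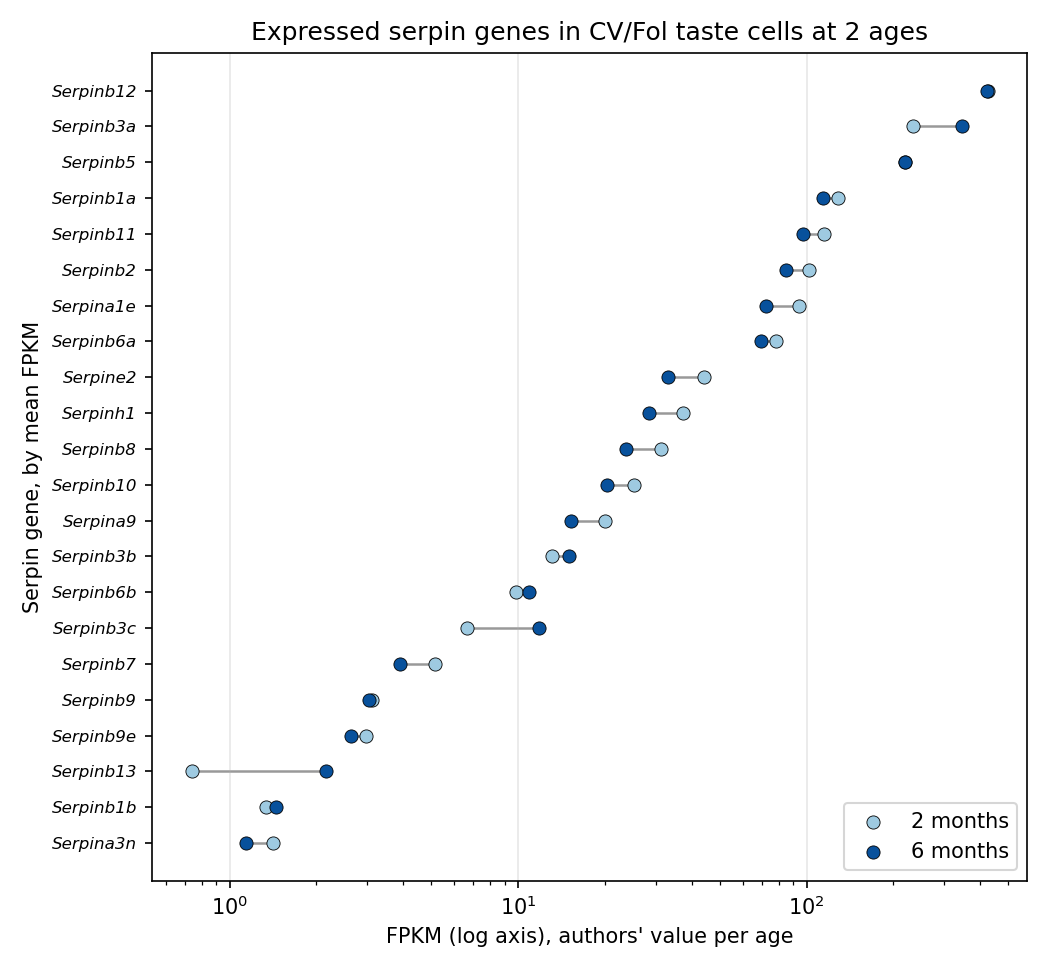
FPKM on a log axis of the 22 expressed serpin genes, ordered by that mean, with light points for 2 months and dark points for 6 months, each the authors' value for the age. The dark point lies clearly to the right for Serpinb3a, Serpinb3c and Serpinb13, and to the left for 15 of the 22 genes, 13 after both ages are set to the same upper quartile.

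Clade B made up most of the serpin mRNA. Its 27 genes summed to 1402 FPKM at 2 months against 1449.8 FPKM at 6 months, or 87.5% and 90.4% of the serpin sum, and 17 of them were expressed. The 25 clade A genes summed to 117 and 89.5 FPKM, with 3 expressed. One gene each of clade E and clade H was expressed, Serpine2 and Serpinh1.

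The squamous cell carcinoma antigen genes, Serpinb3a to Serpinb3d, are known from squamous epithelium. Members of this family inhibit cysteine cathepsins and chymotrypsin-like proteases, which need not hold for each copy. Serpinb3a, the second most abundant serpin, had 234 FPKM at 2 months against 344 FPKM at 6 months, a log2 difference of 0.55 that lies just short of the 1.5-fold limit. With the same upper quartile at both ages its difference was 0.60, past the limit. Serpinb3c had 6.63 FPKM at 2 months against 11.8 FPKM at 6 months, a difference of 0.74. Serpinb3b, between them in level, had 13.1 and 15.1 FPKM, a difference of 0.18. Serpinb3d stayed below the filter at 0.712 and 0.873 FPKM. All 4 copies thus had the higher value at 6 months, and their summed level was 255 FPKM at 2 months against 372 FPKM at 6 months, 1.46 times as high. Nearly all of that sum was Serpinb3a. The share of the 4 copies in the serpin sum was 15.9% at 2 months and 23.2% at 6 months.

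Serpinb13, an inhibitor of cathepsins L and K also called headpin, had 0.738 FPKM at 2 months against 2.16 FPKM at 6 months, a difference of 0.86. It was the largest difference among the expressed serpins, and Serpinb13 passed the filter through its 6 month value. With a pseudocount of 0.1 in place of 1 the difference was 1.43.

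The other clade B serpins of the epithelium ranged widely in level, and 0 of them were called. Serpinb12, an inhibitor of trypsin-like proteases and the most abundant serpin, had 424 FPKM at 2 months against 423 FPKM at 6 months, and 98.2% of expressed genes had the same or a lower mean. Serpinb5, the epithelial protein maspin, which does not act as a protease inhibitor, had 218 and 220.1 FPKM. These 2 genes held 40.1% of the serpin sum at each age, with log2 differences of -0.01 and 0.01. Serpinb11 had 115 FPKM at 2 months against 97.0 FPKM at 6 months, a difference of -0.24. Serpinb7, called megsin, had 5.17 and 3.90 FPKM, a difference of -0.33. Loss of its human counterpart causes a thickening of the skin of palms and soles. Serpinb8, an inhibitor of the proprotein convertase furin, had 31.3 and 23.7 FPKM, a difference of -0.39. Serpinb10, called bomapin and known from blood-forming cells, had 25.2 and 20.4 FPKM, a difference of -0.29. All of these 4 had lower values at 6 months, at either scaling, and none reached 1.5-fold.

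Of the expressed clade B inhibitors of leukocyte granule proteases, 0 were called. Serpinb1a, which blocks neutrophil elastase, cathepsin G and proteinase 3, had 129 FPKM at 2 months against 114 FPKM at 6 months, a difference of -0.17. Its copy Serpinb1b had 1.34 and 1.45 FPKM, a difference of 0.07, and the third copy, Serpinb1c, was below the filter at 0.120 and 0.205 FPKM. Of this family, Serpinb1a was thus the copy present in quantity. Serpinb6a, an inhibitor of cathepsin G and trypsin-like proteases that is required for hearing, had 78.3 and 69.7 FPKM, a difference of -0.16. Serpinb6b had 9.84 and 10.9 FPKM, a difference of 0.14, while Serpinb6c had 0.630 and 0.614 FPKM. The paired copies therefore did not share a direction in either family. Serpinb9, the inhibitor of granzyme B, had 3.12 FPKM at 2 months against 3.05 FPKM at 6 months, a difference of -0.03 that turned to 0.01 with the same upper quartile. Serpinb9e, of the same family, had 2.96 and 2.64 FPKM, a difference of -0.12. Serpinb9c had 0.296 and 0.476 FPKM.

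Both expressed inhibitors of the plasminogen activators had lower values at 6 months. Serpinb2, the type 2 inhibitor and a product of keratinocytes and macrophages, had 102 FPKM at 2 months against 84.5 FPKM at 6 months, a difference of -0.27. Serpine2, or protease nexin, which inhibits thrombin and the plasminogen activators, had 44.0 and 33.1 FPKM, a difference of -0.40. It was the most negative of the expressed serpins, though short of 1.5-fold. Serpini1, the neuronal inhibitor neuroserpin, was just below the filter at 1.03 and 0.931 FPKM. Serpine3 had 0.168 and 0.206 FPKM.

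Clade A was represented by one strong member. Serpina1e, one of several mouse copies of the antitrypsin gene, had 94.3 FPKM at 2 months against 72.0 FPKM at 6 months, a difference of -0.38. The other 5 antitrypsin genes of the table had low values or 0, Serpina1b being the highest with 0.0988 and 0.106 FPKM. All of them but Serpina1f share many stretches with other copies, 47.1% for Serpina1b and 79.3% for Serpina1c, so the values of single copies are uncertain. Liver markers were at or near 0 beside it: Alb was listed at 0 at both ages, Apoa1 had 0.0919 and 0.141 FPKM, and the 5 hepatocyte markers summed to 0.118 FPKM at 2 months against 0.157 FPKM at 6 months. Serpina9, or centerin, known from germinal centre B cells, had 20.1 and 15.3 FPKM, a difference of -0.37. The leukocyte marker Cd79a, a B cell gene, had 0.326 and 0.141 FPKM. Serpina3n, an inhibitor of granzyme B and elastase, had 1.41 and 1.14 FPKM, a difference of -0.17, and was the only one of 11 antichymotrypsin genes to pass the filter. All 3 expressed clade A genes had lower values at 6 months, at either scaling.

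Serpinh1, known as HSP47, is a chaperone that folds collagen in the endoplasmic reticulum and inhibits no protease. It had 37.2 FPKM at 2 months against 28.4 FPKM at 6 months, a difference of -0.38. Of 25 genes for collagens and their modifying enzymes, 12 were expressed, 5 with a higher and 7 with a lower value at 6 months, and 6 each with the same upper quartile. The median difference of these 12 was -0.05, and 0 were called. P4hb, the most abundant of them, had 346 and 331 FPKM. The fibrillar collagen Col1a1 had 0.134 and 0.0599 FPKM. Fibroblast markers summed to 43.6 FPKM at 2 months against 28.7 FPKM at 6 months, almost entirely Dcn, which had 42.0 and 27.3 FPKM and was called lower, with a difference of -0.60. With the same upper quartile Dcn was at -0.56 and was not called. The 6 markers included 2 expressed genes, and Col1a1, Col1a2, Col3a1 and Lum were below 0.15 FPKM at both ages. Whether fibroblast content bears on the value of Serpinh1 was not tested.

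Serpins of clotting and complement, which come mainly from the liver, were near 0. Serping1, the inhibitor of the first complement component, had 0.162 and 0.289 FPKM. Serpinc1, antithrombin, had 0.109 and 0.225 FPKM, and Serpinf2, the inhibitor of plasmin, had 0.227 and 0.226 FPKM. Of the Serpinc1 transcript's 50-base stretches, 58.8% also occur in transcripts of Zbtb37, so this low value cannot be assigned to Serpinc1 with certainty. Other weak members were Serpinf1, the factor PEDF, with 0.350 and 0.446 FPKM, and Serpina12, or vaspin, with 0.359 and 0.166 FPKM. Serpina3h had 0.257 and 0.311 FPKM, Serpina3g had 0.177 and 0.183 FPKM, Serpina3i had 0.205 and 0.123 FPKM, and Serpina11 had 0.143 and 0.0626 FPKM. The same limit holds for Serpina11, with 44.4% of its stretches shared, and to a lesser degree for Serpina3g and Serpina3i, with 16.0% and 15.4%. Serpina3h was the main partner of both, so its value is uncertain as well. Among weak members named earlier, the share was 18.9% for Serpinb9c, 15.7% for Serpine3, 13.4% for Serpinb3d and 10.4% for Serpinb6c. The weak members of this paragraph and those named above as below the filter belong to the 17 serpins with a mean from 0.1 to under 1 FPKM. A further 12 genes had a mean above 0 but below 0.1 FPKM, and 12 were listed at 0 at both ages, among them Serpina6 and Serpina7, the plasma carriers of corticosteroids and thyroid hormone. An entry of 0 need not mean absence here, because the table lists Krt13 at 0 at both ages, and lists Krt4 at 7334 FPKM at 2 months and at 0 at 6 months, and Krt6a at 0 and 3391 FPKM.

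On chromosome 1, genes with the same direction of difference lay side by side. Of the 63 genes, 51 lie in 3 clusters, and the cluster of chromosome 1 runs from Serpinb5 to Serpinb8 over 748 kb, chr1:106861175-107608978 in GRCm38.p6, with 12 genes, 11 of them expressed. From the left, Serpinb5 and Serpinb12 summed to 643 FPKM at either age. The next 5 genes, Serpinb13 and the 4 Serpinb3 copies, all had higher values at 6 months, with a sum of 255 FPKM at 2 months against 374 FPKM at 6 months. The last 5, Serpinb11, Serpinb7, Serpinb2, Serpinb10 and Serpinb8, all had lower values, with a sum of 279 and 229.5 FPKM. The directions within these runs were the same with both ages set to one upper quartile, and the runs were marked off once the values were known. Serpinb3a to Serpinb3d are read from the minus strand and the other 8 genes from the plus strand, so the run of higher values takes in both strands. The nearest expressed neighbour, Vps4b, 64.5 kb to the left of Serpinb5, had 43.2 and 45.1 FPKM, a difference of 0.06, and Dsel, the nearest on the right but 4249.7 kb away, had 2.74 and 2.59 FPKM, a difference of -0.06.

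**Figure D2:**
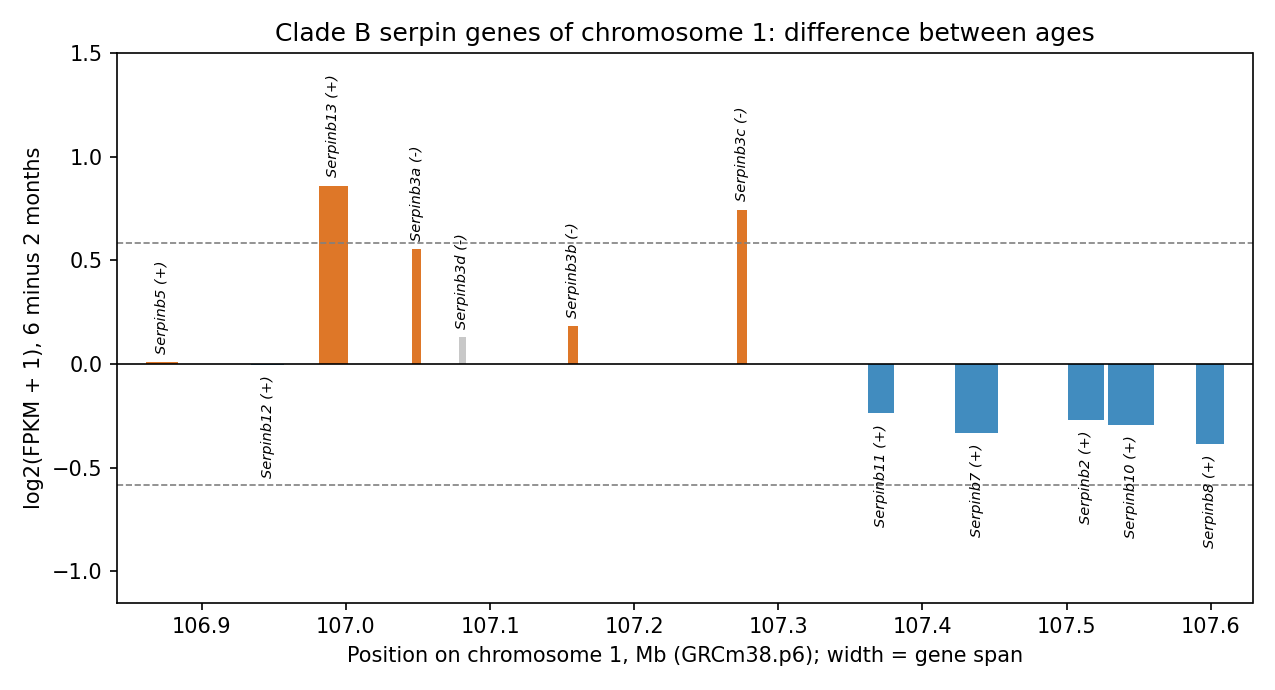
Difference of log2(FPKM + 1), 6 minus 2 months, for each of the 12 serpin genes of the cluster on chromosome 1, drawn over its span in GRCm38.p6 with its strand in brackets. Orange marks a higher and blue a lower value at 6 months, grey a gene below 1 FPKM, and dashed lines a 1.5-fold difference. The 5 genes from Serpinb13 to Serpinb3c lie above 0 and the 5 from Serpinb11 to Serpinb8 below it, while Serpinb12, near 0, changes direction when both ages are set to the same upper quartile.

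The other 2 clusters held fewer expressed genes. On chromosome 13, 15 clade B genes from Serpinb1a to Serpinb6a span chr13:32842092-34002794, and of the 6 expressed ones 2 had a higher and 4 a lower value at 6 months, or 3 and 3 with the same upper quartile. Their sum was 225 FPKM at 2 months against 203.5 FPKM at 6 months. On chromosome 12, 24 clade A genes span chr12:103616675-104414334, and the 3 expressed ones were Serpina1e, Serpina9 and Serpina3n. The nearest expressed gene on the left of that cluster, Ifi27l2a, an interferon-induced gene, had 28.7 FPKM at 2 months against 53.1 FPKM at 6 months and was called higher, with a difference of 0.86, while Dicer1 on the right had 7.87 and 8.97 FPKM, a difference of 0.17 and not called. Beside the cluster of chromosome 13, Wrnip1 had 21.4 and 21.3 FPKM and Bphl had 20.5 and 20.0 FPKM, and neither was called.

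Several serpins are close copies, and reads from a shared stretch can be assigned to the wrong copy. Coding sequences of Serpinb3b and Serpinb3c were identical at 93.1% of aligned bases, those of Serpinb3a and Serpinb3b at 92.9%, and those of Serpinb3a and Serpinb3c at 91.2%. Of the 50-base stretches of the Serpinb3a transcript, 15.2% also occur in a transcript of another gene, and the share was 14.7% for Serpinb3b and 12.2% for Serpinb3c. The main partner of Serpinb3a was Gm8080, a gene outside the 4 copies, with 9.87% of the stretches, while Serpinb3b and Serpinb3c shared most with each other. Both the values of the single copies and their sum are therefore uncertain. Serpina1e shared 35.6% of its stretches, mainly with Serpina1d, and Serpinb9e shared 28.4%, mainly with Serpinb9f. Serpinb13 shared 0 stretches, as did Serpinb12, Serpinb5, Serpinb11, Serpinb2, Serpinb7, Serpine2 and Serpinh1, so 8 of the 22 expressed serpins had no such overlap and 6 had 10% or more. Those 6 were Serpina1e, Serpinb9e, Serpinb6a and the 3 expressed Serpinb3 copies.

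The reactive centre loop, the part that decides which protease is caught, differs between the Serpinb3 copies. The coding bases of the loop are given below for the 4 copies, from the conserved hinge to the conserved end of the loop, each within 1 coding exon on the minus strand of chromosome 1 in GRCm38, with bases that differ from Serpinb3a in capitals. They lie at chr1:107046082-107046174 for Serpinb3a, chr1:107154435-107154527 for Serpinb3b, chr1:107271695-107271784 for Serpinb3c and chr1:107078259-107078351 for Serpinb3d.
Serpinb3a: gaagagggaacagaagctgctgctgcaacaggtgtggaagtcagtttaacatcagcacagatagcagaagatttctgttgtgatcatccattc
Serpinb3b: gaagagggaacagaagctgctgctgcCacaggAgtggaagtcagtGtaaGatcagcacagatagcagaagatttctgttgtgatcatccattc
Serpinb3c: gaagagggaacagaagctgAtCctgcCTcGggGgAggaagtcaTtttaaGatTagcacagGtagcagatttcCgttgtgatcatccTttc
Serpinb3d: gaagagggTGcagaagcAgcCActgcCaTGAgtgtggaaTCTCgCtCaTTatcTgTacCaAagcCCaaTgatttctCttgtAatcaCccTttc
Against Serpinb3a, the Serpinb3b loop had 4 such bases and was identical at 95.7% of aligned bases, with 92.6% over the rest of the coding sequence. Serpinb3c, called higher, had 13 differing bases and lacked 3 more, and its loop was identical at 82.8%, against 92.0% over the rest. The Serpinb3d loop had 28 capitals, 1 of them an extra base, lacked 1 base and was identical at 69.1%, against 91.1% over the rest. The 2 copies with the larger age differences, Serpinb3a and Serpinb3c, are not the pair with the most similar loops.

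Promoter windows from RefSeq, 250 bases before to 50 bases after a start site listed for the gene in GRCm38.p6, were found for 52 of the 63 serpins and for 19 of the 22 expressed ones, Serpina9, Serpinb13 and Serpinb1a being without one. Some genes have more than 1 window, and the start site can lie inside the annotated span of the gene, as it does for Serpinb2 and Serpinb8. The windows were searched on both strands for TGAGTCA (the AP-1 site), TGACGTCA (the cAMP response element), CACGTG (the E-box) and TATAAA (the TATA box), none of which contains another. TATAAA was present for 15 of the 52 serpins, or 28.8%, and for 15.7% of all 27025 genes with a window. It was found in Serpinb3a, Serpinb3b, Serpinb3c, Serpinb2, Serpinb7 and Serpinb12 among the expressed serpins. These counts take in matches on either strand and at any position of the window. Counted from the start site, the matches of Serpinb12 lay far upstream, at -220 and -201. Those of Serpinb7 were on the opposite strand, at -239 and -33. TGAGTCA was present for 6 of the 52 serpins, or 11.5%, and for 5.95% of all genes. Besides Serpinb7 and Serpinb8, these were Serpina1a, Serpina1b, Serpina1c and Serpina1d, antitrypsin copies below the filter. Their coding sequences were identical at 91.5% to 96.7% of aligned bases. Their matches were on the opposite strand at -233, -240, -239 and -229, so a site of near copies is counted for each copy. Of the 19 expressed serpins with a window TGAGTCA was in 2, Serpinb7 and Serpinb8. It was absent from the windows of the other 3 genes of the same run, Serpinb11, Serpinb2 and Serpinb10. TGACGTCA and CACGTG were in 0 serpin windows, and in 2.03% and 8.09% of all genes. A match of letters is a description and not evidence of a bound factor.

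The 120 bases before the window's start site are shown for the 4 Serpinb3 copies, which had higher values together, and for Serpinb7 and Serpinb8, with matches to TATAAA or TGAGTCA on either strand in capitals. They lie at chr1:107052304-107052423, chr1:107161115-107161234, chr1:107278372-107278491 and chr1:107083481-107083600 on the minus strand for Serpinb3a, Serpinb3b, Serpinb3c and Serpinb3d. On the plus strand, that of Serpinb7 lies at chr1:107422569-107422688 and that of Serpinb8 at chr1:107589886-107590005, where most of the bases, with the match in capitals, are inside the annotated gene.
Serpinb3a: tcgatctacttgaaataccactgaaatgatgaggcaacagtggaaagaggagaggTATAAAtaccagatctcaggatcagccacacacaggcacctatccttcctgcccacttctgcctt
Serpinb3b: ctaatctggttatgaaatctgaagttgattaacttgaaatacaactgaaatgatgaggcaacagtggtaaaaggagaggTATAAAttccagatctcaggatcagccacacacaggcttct
Serpinb3c: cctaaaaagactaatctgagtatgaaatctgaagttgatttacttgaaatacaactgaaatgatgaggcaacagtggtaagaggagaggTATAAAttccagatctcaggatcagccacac
Serpinb3d: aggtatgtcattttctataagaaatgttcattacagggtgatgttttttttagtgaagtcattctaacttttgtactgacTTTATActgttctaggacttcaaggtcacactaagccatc
Serpinb7: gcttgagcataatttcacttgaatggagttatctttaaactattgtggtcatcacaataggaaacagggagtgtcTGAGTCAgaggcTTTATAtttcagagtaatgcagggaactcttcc
Serpinb8: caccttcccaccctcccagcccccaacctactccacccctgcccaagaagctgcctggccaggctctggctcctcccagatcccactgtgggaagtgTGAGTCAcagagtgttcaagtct
The upstream windows of Serpinb3a, Serpinb3b and Serpinb3c were near copies as well, with 92.5% identity of Serpinb3a to Serpinb3b over 226 aligned bases, 94.0% of Serpinb3a to Serpinb3c over 216 and 95.4% of Serpinb3b to Serpinb3c over 240.0 aligned bases. TATAAA began at position -65 of Serpinb3a, -41 of Serpinb3b and -31 of Serpinb3c, counted back from the annotated start. Serpinb3d could be aligned with these 3 over 64 bases at most, and its match is on the opposite strand at -40.

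Lists of proteases, some of them targets of serpins, and of related genes were read beside the serpins. Cathepsins, which include targets of the Serpinb3 family and of Serpinb13, had 11 expressed genes of 13. Of these, 1 had a higher and 10 had a lower value at 6 months, or 5 and 6 with the same upper quartile. Their median was -0.10, and 0 were called. Ctsd, the most abundant, had 467 and 460.4 FPKM, and Ctsl, a target of Serpinb13, had 152 and 118 FPKM, a difference of -0.36. Ctsk, its other target named above, was below the filter at 0.366 and 0.480 FPKM. Of 17 genes of plasminogen activation and clotting, 7 were expressed, 2 with higher and 5 with lower values, with a median of -0.14 and 0 called. F3, tissue factor, led with 81.8 and 97.4 FPKM, and the activators Plau and Plat had 25.2 and 21.0 FPKM and 7.23 and 5.77 FPKM. Serpine2 and Serpinb2 and these activators thus had lower values at 6 months, while F2, thrombin, which Serpine2 also inhibits, had a slightly higher one, with 0.985 and 1.07 FPKM, a difference of 0.06.

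Of 21 granule proteases of leukocytes, 1 was expressed. This was Gzma, granzyme A, with 53.4 FPKM at 2 months against 33.4 FPKM at 6 months, called lower with a difference of -0.66. Gzmb, the target of Serpinb9, had 0.163 and 0.0696 FPKM. Of the targets of Serpinb1a, Elane and Ctsg were listed at 0 at both ages, and Prtn3 had 0.0236 and 0.142 FPKM. Leukocyte markers summed to 311 FPKM at 2 months against 269 FPKM at 6 months over 7 genes, mostly Lyz2 with 293 and 254 FPKM. Of the 5 expressed ones 2 had higher values, Ptprc and Itgam, and 3 lower, Lyz2, Cd68 and Cd3g, and 0 were called. Cd3e, below the filter, had 0.370 and 0.822 FPKM. The mast cell marker Cma1 was listed at 0, and of the 5 mast cell markers only Kit was expressed, with 22.7 and 24.4 FPKM. Of 6 complement C1 and lectin pathway proteases, 0 were expressed.

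Kallikreins and membrane-bound serine proteases of the epithelium were abundant. Of 28 genes, 24 were expressed, 1 with a higher and 23 with a lower value at 6 months, or 2 and 22 with the same upper quartile, with a median of -0.23 and 3 called lower. Klk7, which sheds cells of the cornified layer, had 39.1 FPKM at 2 months against 6.20 FPKM at 6 months, a difference of -2.48. Klk9 had 20.8 and 8.26 FPKM, and Klk8 had 123 and 73.0 FPKM, differences of -1.23 and -0.74. Klk10, the most abundant, had 857 and 625 FPKM.

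The other families of protease inhibitors were read in the same way. Of 61 such genes in the table, 28 were expressed, and 24 had a lower and 4 a higher value at 6 months at either scaling. Their median was -0.35, and 9 were called lower and 0 higher. The 6 called genes with the largest differences were Spink4, from 3.07 to 0.644 FPKM, Wfdc18, from 3727 to 1542 FPKM, Stfa2, from 1.96 to 0.399 FPKM, Slpi, from 958 to 454 FPKM, Fetub, from 504 to 266 FPKM, and Stfa3, from 23.3 to 12.6 FPKM. Of the 9 called genes, 3 passed the filter only through their 2 month value, Spink4, Stfa2 and Spink7. The summed level of these families was 7367 FPKM at 2 months against 4115 FPKM at 6 months, so serpins were the smaller group of inhibitor mRNA at both ages. The difference between the serpins and these families was not tested.

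**Figure D3:**
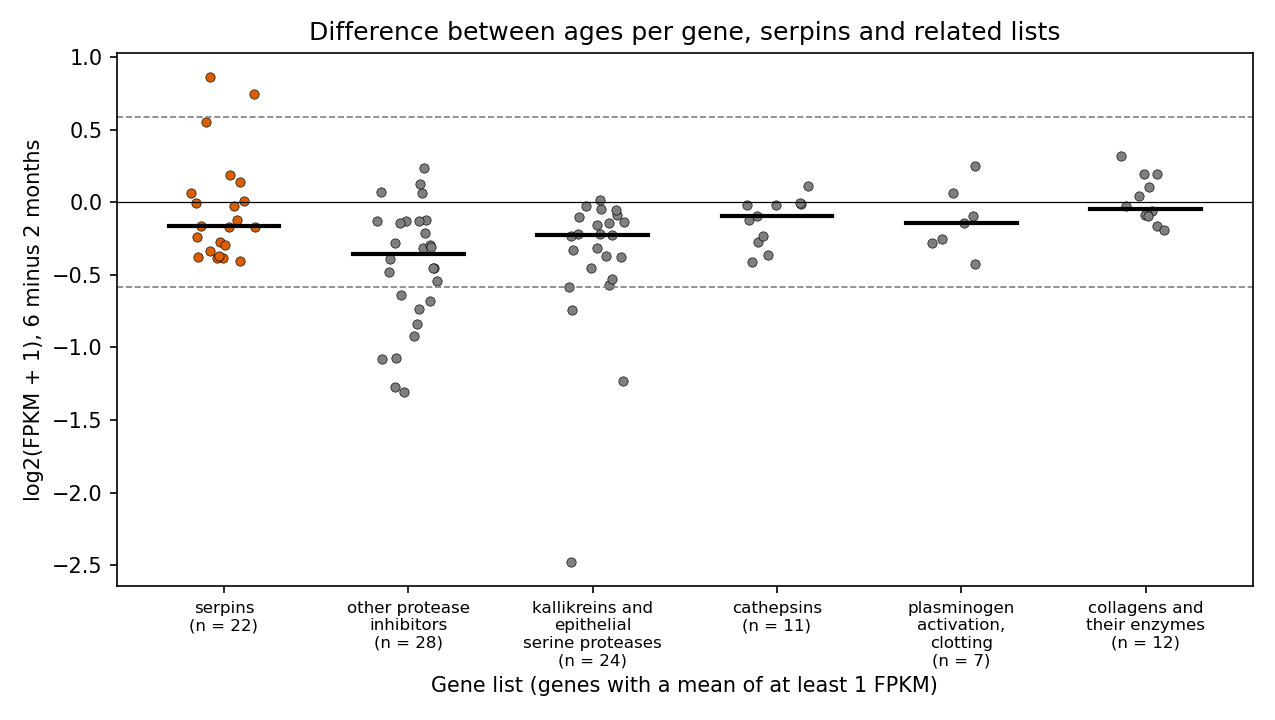
Difference of log2(FPKM + 1), 6 minus 2 months, for each expressed gene of the serpins and of 5 related lists, with black bars for medians and dashed lines for a 1.5-fold difference. The serpins have a median of -0.17, and the other protease inhibitors have a median of -0.35. Among the lists drawn, the only points above the upper dashed line are Serpinb3c and Serpinb13. Serpinb13 passed the filter through its 6 month value, and 1.05% of all expressed genes were called higher. With both ages set to the same upper quartile, the cathepsins divide into 5 higher and 6 lower values.

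Markers of differentiated epithelium also differed between the ages. Of 8 suprabasal and cornified keratinocyte genes, 7 were expressed, all with lower values at 6 months, and 5 were called lower, or 4 with the same upper quartile. One of the called genes is Krt4, the most abundant, with its entry of 0 at 6 months. Without it, 4 of 6 expressed genes were called lower, or 3 with the same upper quartile. The summed level without Krt4 was 2449 FPKM at 2 months against 1591 FPKM at 6 months. Lor, loricrin, had 1292 and 733 FPKM, Cdsn had 147 and 63.9 FPKM, Krt10 had 149.7 and 70.5 FPKM, and Ivl had 32.9 and 21.5 FPKM. Basal keratinocyte genes summed to 4484 and 4437 FPKM, with 1 gene higher at 6 months, Krt14 at 1287 and 1533 FPKM, and 3 lower, Krt5, Krt15 and Trp63, at either scaling, and 0 called. Keratins of taste cells, Krt8, Krt18 and Krt19, summed to 766 and 625 FPKM, with Krt19 the most abundant at 308 and 262 FPKM. Skeletal muscle genes were called higher for 4 of 5, with a sum of 7.13 FPKM at 2 months against 16.4 FPKM at 6 months, the most abundant being Tnnc2 with 2.14 and 5.57 FPKM, followed by Acta1, Mb and Ckm. Lingual gland genes summed to 136 and 45.4 FPKM, led by Lipf with 83.7 and 14.7 FPKM, and Lipf and Bpifb1 were called lower. The part of these other cell types in the values of Serpinb3a, Serpinb3c, Serpinb13 and the serpins with lower values was not tested.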

How the data were processed

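RNA of CV/Fol taste cells from 3 pools per age was sequenced from poly(A)-selected libraries. According to the submitters' processing notes and the study's methods, reads were mapped to GRCm38/mm10 with TopHat2 2.0.7 and RefSeq genes were quantified with Cufflinks 2.1.1. The authors deposited 1 FPKM value per gene and age, a value for the pooled group, which carries no depth. The deposited table also holds unadjusted p-values of the authors' Cuffdiff comparison, which were not used. The 6 and 2 month columns were matched to the labels by the group letter.

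Serpins were taken by symbol. Differences used log2(FPKM + 1), with genes kept from a mean of 1 FPKM upwards and a limit of 1.5-fold. The rule for naming genes was all expressed serpins, those from 0.1 FPKM, and from each other list the most abundant gene, the called genes (at most 6) and markers at 0. One serpin that this rule names is not reported here. Other genes were named after their values were seen. The members and lists were chosen with earlier results of these data known. The calling step was tested on simulated data, and the outcome is not reported here. Positions and promoter windows came from RefSeq (GRCm38.p6), with all 63 genes placed, and transcripts from GENCODE M21. Coding sequences were aligned for 61 of the 63 genes, in place of proteins, which were not used here. The loop was found by its conserved flanks. Stretches of 50 bases were compared with every transcript on both strands. Alternatives were a pseudocount of 0.1, the same upper quartile (6 month values times 1.03 for differences, and both ages brought to the mean of their upper quartiles for summed levels), no filter, a filter at a mean of 5 FPKM and a 2-fold limit. Python 3.11.15, numpy 2.4.6, pandas 2.3.3, Biopython 1.88 and matplotlib 3.10.9 were used.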

Additional observations from a re-analysis of the deposited data

How the results depend on the processing

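No paired analysis was possible because each age has a single pooled value, and for the same reason no replicate could be left out. Of the 22 expressed serpins, 22 kept their direction and their side of the 1.5-fold limit with a pseudocount of 0.1, and 20 kept their direction with the same upper quartile, where Serpinb12 and Serpinb9 turned and Serpinb3a passed the limit. That scaling moved the median of all expressed genes to 0.03. The count of serpins called higher was 2, and 3 with the same upper quartile, 1 at a mean of at least 5 FPKM, which leaves Serpinb13 out, and 0 with a 2-fold limit. The count called lower was 0 under every alternative run. The median difference of -0.17 moved to -0.015 with no filter, where 51 serpins, many of them near 0 FPKM, entered in place of 22, and was -0.20 at a mean of at least 5 FPKM, with 16. Without the most abundant member, Serpinb12, the summed level was 1179 FPKM at 2 months against 1181 FPKM at 6 months, and without Serpinb3a, Serpinb3c and Serpinb13, an alternative chosen after seeing the data, it was 1362 and 1246 FPKM. With both ages brought to the mean of their upper quartiles the sums were 1579.6 and 1628 FPKM. Depth is unknown, so no limit can be put on the values near 0.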

Other observations

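Among taste cell genes, all 5 type III markers had higher values at 6 months, with a sum of 31.3 FPKM at 2 months against 36.3 FPKM at 6 months, and 0 were called. Of the 5 type II markers 3 had higher values, with sums of 212 and 219 FPKM. The neutrophil genes S100a9 and S100a8, which keratinocytes also express, had 75.2 and 69.8 FPKM and 65.4 and 56.1 FPKM, while the granule genes Mpo and Elane were at 0.00558 and 0.0276 FPKM and listed at 0. Endothelial markers summed to 5.90 and 5.29 FPKM over 5 genes, led by Vwf with 3.94 and 3.34 FPKM. Melanocyte and nerve markers summed to 2.52 and 2.06 FPKM over 4 genes, led by Pmel with 1.25 and 0.983 FPKM.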
